A study of Mus musculus with 21 samples.

Results

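The genes described here encode RNA-binding proteins that act on pre-mRNA. They are the SR protein genes (platform symbols beginning Srsf or Sfrs), the hnRNP genes (Hnrnp or Hnrp) and the RNA-binding motif genes (Rbm followed by a digit), measured on Affymetrix arrays of mouse mammary epithelial cells that received the cytokine TGF-b1 (transforming growth factor beta 1). A gene was a member when its symbol met that rule in both value tables of the study on a probe set annotated to 1 gene, and of several such probe sets the one with the highest mean level in a table stood for its gene. This gave 48 members among the 12393 genes that both tables share: 9 SR protein genes, 18 hnRNP genes and 21 Rbm genes. No filter on low values was applied, so all 48 were tested in every comparison. In 8 members (Hnrnpa2b1, Hnrnpr, Hnrnpu, Hnrnpul2, Rbm26, Rbm47, Rbm4b and Rbm6) the tables used different probe sets. Rbm3, Rbm4, Rbm10 and Hnrnpa3 were covered only by probe sets shared with other genes, and Srsf7 by none annotated to 1 gene, so these genes were not analysed here.

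SR proteins bind exonic enhancers through their RNA recognition motifs and recruit the splicing machinery through arginine and serine rich domains. hnRNP proteins coat nascent transcripts, and many of them oppose SR proteins by binding silencer sequences in exons and introns. The Rbm symbols are shared by proteins with an RNA recognition motif but otherwise different work, from core spliceosome and exon junction subunits to cofactors of RNA editing and decay. When epithelial cells take on a mesenchymal state, splicing of adhesion and cytoskeletal genes is known to change, and several of these proteins, Srsf1 and Hnrnpm among them, have been studied as regulators of such exons.

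The study used 21 arrays in 7 groups of 3. Cells of the mouse mammary gland line NMuMG were kept for 2 h in medium with 200 µM 4-thiouridine (4sU), a uridine analogue built into RNA made during that time, either alone or with 5 ng/ml TGF-b1. From both cultures total RNA and the 4sU-labelled RNA, enriched by mercury-based chromatography and called newly made RNA here, were hybridised separately after linear amplification, so all 4 NMuMG groups had received 4sU. NM18 cells were transfected with 25 nM siRNA and harvested after 48 h. Those transfected with control siRNA (labelled ns-siRNA) were left untreated or received 5 ng/ml TGF-b1 from 8 h after transfection for 40 h. Those transfected with siRNA against the forkhead factor FoxQ1 all received the same TGF-b1. No group had FoxQ1 siRNA without TGF-b1, the labels do not say how NM18 cells were derived, and 1 siRNA label stands for each target. The free-text note of array 1 of control siRNA without TGF-b1 mentions TGF-b1. The title and treatment fields of that array do not, and they were followed. Whether the arrays of a group came from separate cultures is not stated per array, so p-values measure the spread between these arrays.

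All levels below are deposited log2 values, and a change is a difference of group means in log2 units with its standard error. That error comes from limma, which pools the spread over all groups of a table, also those not compared. A gene is called when its limma p-value, adjusted by Benjamini-Hochberg over all genes of the table, is under 0.05. Depth has no meaning for arrays, and 3 arrays per group limit the precision. The SD of a member over the arrays of a group had a median between 0.09 and 0.16 in the 7 groups. Foxq1 itself had means of 8.26, 9.15 and 7.88 in the untreated, TGF-b1 and FoxQ1 siRNA groups of NM18 cells, and the FoxQ1 siRNA lowered it by -1.27 ± 0.16 (limma adjusted p = 0.000291). Of 10 epithelial markers 7 lay above the median gene in NMuMG and 5 in NM18 cells, with a keratin gene (Krt8 or Krt18) as the highest and Esrp1, an epithelial splicing regulator, as the lowest in each line. Of the fibroblast, leukocyte, endothelial and adipocyte markers only 1 of 8, 1 of 8, 0 of 5 and 0 of 3 lay above the median gene in NMuMG cells and 0, 1, 0 and 0 in NM18 cells, where Cd14 was the leukocyte gene in both. In these bulk samples fewer cells of a type and less RNA per cell cannot be told apart.

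The members that fell under TGF-b1 at 40 h included the SR protein genes Srsf1, Srsf2 and Srsf3, and Rbm47 fell at both times. The bases before their annotated starts are shown as examples, and those of the other members that fell are not printed. They are RefSeq sequences of the GRCm38.p6 build, 150 bases ending just before the start of transcription, 5′ to 3′ on the gene's strand, which is plus for Srsf1 and Srsf3 and minus for Srsf2 and Rbm47. Capitals mark TATAAA and CCGGAAG, searched on both strands as the letters of the TATA box and of an ETS factor motif.
Srsf1, chr11:88047223-88047372: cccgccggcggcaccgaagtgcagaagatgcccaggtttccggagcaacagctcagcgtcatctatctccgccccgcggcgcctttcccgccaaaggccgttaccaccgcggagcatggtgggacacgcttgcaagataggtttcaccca
Srsf2, chr11:116853095-116853244: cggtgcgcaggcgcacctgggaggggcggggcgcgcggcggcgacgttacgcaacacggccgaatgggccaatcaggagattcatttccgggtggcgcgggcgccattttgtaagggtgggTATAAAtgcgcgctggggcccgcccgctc
Srsf3, chr17:29032510-29032659: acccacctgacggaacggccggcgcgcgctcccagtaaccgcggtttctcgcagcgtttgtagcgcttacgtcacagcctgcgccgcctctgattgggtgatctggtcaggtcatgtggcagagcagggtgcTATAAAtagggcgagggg
Rbm47, chr5:66098180-66098329: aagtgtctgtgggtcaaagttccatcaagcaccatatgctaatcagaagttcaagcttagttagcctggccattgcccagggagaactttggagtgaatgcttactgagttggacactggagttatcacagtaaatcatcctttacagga
Rbm47, chr5:66150979-66151128: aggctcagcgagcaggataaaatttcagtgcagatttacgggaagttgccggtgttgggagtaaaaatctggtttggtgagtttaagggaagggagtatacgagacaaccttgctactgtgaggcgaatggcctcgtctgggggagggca
Rbm47, chr5:66151955-66152104: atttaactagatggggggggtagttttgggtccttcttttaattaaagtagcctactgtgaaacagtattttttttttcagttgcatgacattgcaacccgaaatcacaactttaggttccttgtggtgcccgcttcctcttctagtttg
Srsf2 and Srsf3 each held TATAAA, its first base 29 and 18 bases before the start, and neither motif stood in the other stretches. The SR stretches were rich in CpG, with 15, 21 and 15 CpG dinucleotides in Srsf1, Srsf2 and Srsf3, against 0, 6 and 2 at the 3 starts of Rbm47. Promoter windows of 300 bases (250 before to 50 after the start) were matched for 44 of 48 members, with 60 windows in all, and Hnrnpll, Hnrnpul2, Rbm22 and Rbm8a had none. CCGGAAG was found in 12 of the 60 member windows (20%) against 8.86% of all 32851 windows, and in 5 of the 12 SR windows. Windows of a gene can overlap, and counted by gene the motif was found for 8 of 44 members (18.2%) and 3 of 9 SR genes, against 9.93% of all 27025 genes. TATAAA was found in 6 member windows (10%), each of another gene, against 13.6% of all windows. The median number of CpG per window was 25.5 for members and 7 for all genes. Such matches describe letters in these windows and nothing more.

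Newly made RNA was first compared with total RNA in NMuMG cells without TGF-b1, which shows which transcripts make up more of the RNA labelled within 2 h than of the standing pool. Members went both ways: 13 were higher in newly made RNA and 15 lower, against 17.2% and 26.8% of all genes (44.0% in either direction), and their median difference was 0.03 against -0.08 for all genes. The families differed in their counts. Among Rbm genes 10 were higher and 5 lower, among hnRNP genes 2 were higher and 8 lower, and among SR genes 1 was higher and 2 lower. These are counts without a test between families, and those of SR and hnRNP genes shifted with the scaling. The newly made arrays also had larger 3′ minus 5′ differences of the control transcripts, 2.45 ± 0.66 for Actb and 3.10 ± 0.55 for Gapdh (SD, n = 3) against 1.44 ± 0.09 and 1.81 ± 0.16 in total RNA, and the part of this in the gene differences was not tested.

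Of the SR genes 3 were called on the deposited scale. Srsf10, a splicing repressor when dephosphorylated, was higher in newly made RNA by 1.03 ± 0.12 (limma adjusted p = 2.1e-06). Srsf9 had levels of 9.44, 9.56 and 9.40 in newly made and 10.58, 10.55 and 10.29 in total RNA. The groups of Srsf9 did not overlap, and it was lower by -1.01 ± 0.11 (limma adjusted p = 1.05e-06). Srsf5 was also lower, by -0.84 ± 0.19. Srsf1, Srsf2, Srsf3, Srsf6 and Srsf11 had differences of -0.00 ± 0.11, -0.25 ± 0.19, 0.01 ± 0.12, 0.16 ± 0.17 and 0.17 ± 0.25 and were not called. Quantile normalization called Srsf1 higher at 0.63, Srsf3 at 0.41 and Srsf6 at 0.43. The mean of all probe sets called Srsf3 higher at 0.61 and Srsf11 at 1.80, and Srsf2 lower at -0.32.

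Of the hnRNP genes 2 were higher and 8 lower on the deposited scale, a balance that depended on the scaling and the probe sets used. Quantile normalization gave 9 higher and 4 lower, centring on the median 4 and 5, and the mean of all probe sets 6 and 7. Hnrnpa1, which binds splicing silencers and shuttles mRNA to the cytoplasm, had 12.31, 12.06 and 11.83 in newly made RNA and 10.27, 10.21 and 10.37 in total RNA. Every newly made array of Hnrnpa1 lay above every total array, with a difference of 1.79 ± 0.13 (limma adjusted p = 1.42e-08), while its 3 probe sets ranged from 0.04 to 1.86. Hnrnpd, also called AUF1, which binds AU-rich elements of unstable mRNAs, had 10.28, 10.32 and 10.22 against 11.42, 11.36 and 11.41. Its difference was -1.12 ± 0.10 (limma adjusted p = 1.31e-07), but the mean over its 3 probe sets gave 0.52, the opposite direction. Hnrnpl, which binds CA repeats, was lower by -0.999 ± 0.18 and Hnrnpm by -0.83 ± 0.17. Hnrnpu was lower by -0.43 ± 0.11 and Hnrnpc by -0.33 ± 0.12. Hnrnpab was lower by -0.30 ± 0.11. The mean of all probe sets turned Hnrnpu to 0.47, and quantile normalization of the arrays turned Hnrnpab to 0.38 and Hnrnpc to 0.23. Hnrnpa2b1 and Hnrnpk differed by 0.06 ± 0.16 and 0.08 ± 0.12 and were not called, but after quantile normalization they were called higher at 0.53 ± 0.16 and 0.67 ± 0.12. Hnrnpdl, Hnrnpf, Hnrnpr and Hnrnpul2 were also called only under other settings. Quantile normalization put all 4 higher, while the mean of all probe sets put Hnrnpdl and Hnrnpr higher and Hnrnpf and Hnrnpul2 lower.

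The Rbm genes held the widest differences in both directions. Rbm4b, a paralog of Rbm4, had 9.20, 9.14 and 8.77 in newly made and 5.75, 5.80 and 5.82 in total RNA, a gap of 3.25 ± 0.14 or 9.52-fold (limma adjusted p = 7.06e-10). Its 3 probe sets ranged from 0.11 to 3.25. Rbm26 was higher by 2.40 ± 0.22, and Rbm15, a subunit of the complex that places m6A on RNA, by 1.90 ± 0.13. Rbm6 and Rbm5, neighbouring genes whose proteins regulate exon choice in apoptosis genes, were higher by 1.58 ± 0.12 and 0.59 ± 0.12. Rbm39, a U2AF-related splicing factor, was higher by 0.92 ± 0.21. On the other side Rbm42 had 8.42, 8.59 and 8.46 against 10.35, 10.28 and 10.64, so that all newly made arrays lay below all total arrays by -1.93 ± 0.12 (limma adjusted p = 3.53e-09). Rbm19, a nucleolar protein of ribosome biogenesis, was lower by -1.73 ± 0.13, and Rbm8a (Y14), a core subunit of the exon junction complex, by -0.94 ± 0.12.

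The same comparison in the TGF-b1 cultures used other arrays and gave 15 members higher and 14 lower, against 18.3% and 26.8% of all genes (45.0% in either direction). Called in the same direction in both cultures were 26 members, which is 92.9% of the 28 called without TGF-b1 and 89.7% of the 29 called with it, and none was called in opposite directions. Rbm4b differed by 3.43 ± 0.14, Hnrnpa1 by 1.95 ± 0.13, Srsf10 by 1.07 ± 0.12, Hnrnpd by -0.95 ± 0.10 and Rbm42 by -1.91 ± 0.12. Hnrnpab and Hnrnpc were called only without TGF-b1, and Hnrnpdl, Hnrnpul2 and Rbm38 only with it, which is no test of a difference between the cultures. Hnrnpul2 had 0.43 ± 0.11 there and turned to -0.34 with the mean of its probe sets. Scaling of the arrays moved the balance in both cultures. Centring each array on its median moved the median of all genes from -0.08 to 0.03 and the member counts without TGF-b1 to 17 higher and 12 lower. Quantile normalization moved the median of all genes to -0.18 and the counts to 23 higher and 12 lower, and with TGF-b1 these settings gave 18 and 11 and then 23 and 13. A further 17 genes met the symbol rule in the NMuMG table alone, of which newly made RNA without TGF-b1 had 5 higher and 2 lower, with differences from -0.97 to 2.25.

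Other splicing genes were counted in lists chosen by function, all for NMuMG cells without TGF-b1. The shares called among all genes there were 17.2% upward and 26.8% downward. Of U2 snRNP and branch site proteins 12 of 17 were lower in newly made RNA without TGF-b1 and 0 higher, with a median of -0.71 and Sf3b5 at -2.09 ± 0.21. Of U1 and Sm core proteins 7 of 11 were lower and 2 higher, with a median of -0.90, and of tri-snRNP and Prp19 complex proteins 14 of 22 were lower and 4 higher. SR kinases and SR-related proteins leaned the other way, with 8 of 18 higher and 3 lower, led by Srek1 at 2.27 ± 0.12 and the speckle scaffold Son at 1.25 ± 0.14. Of other regulators of splice site choice 16 of 36 were higher and 8 lower, among them Taf15 at 2.99 ± 0.21 and Sfpq, a paraspeckle protein, at 2.86 ± 0.22. Of exon junction and nonsense-mediated decay proteins 3 of 11 were higher, including the decay kinase Smg1 at 2.13 ± 0.18, and 2 lower.

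**Figure D1:**
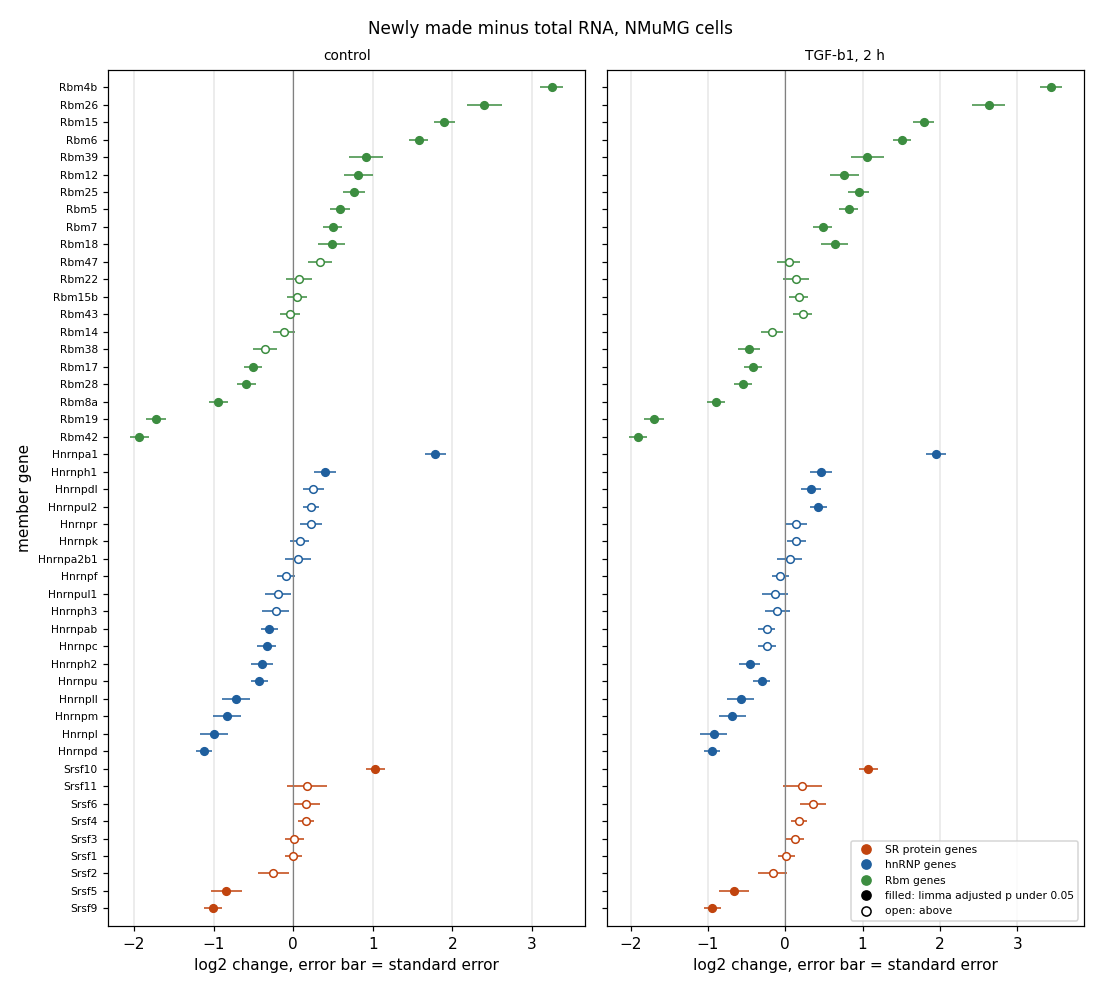
Difference of newly made minus total RNA (x axis, log2) for the 48 members (y axis, ordered within family). NMuMG cells were without (left) or with TGF-b1 (right). Bars show the limma standard error, with the spread pooled over all NMuMG groups. Filled points have a limma adjusted p under 0.05, and Rbm4b at 3.25 and Rbm42 at -1.93 mark the ends of the left panel.

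Most members were read by several probe sets, and in newly made against total RNA these did not give 1 value per gene. The 48 members had 154 probe sets in the NMuMG table, and 35 members had more than 1. All single-gene probe sets were fitted, and the values here are those without TGF-b1. The range from the lowest to the highest difference of a gene had a median of 1.40 over these 35 members. It exceeded 1 in 24 of them. In 9 of the 35, probe sets of 1 gene were called in both directions. Hnrnpab, with 7 probe sets from -2.75 to 1.07, had the widest range at 3.83. Hnrnpu ran from -0.65 to 2.44 over 5 probe sets, Rbm5 from -0.50 to 2.82 over 5 and Hnrnpd from -1.12 to 1.41 over 3.

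Other members differed in size but not in direction. All 12 probe sets of Rbm39 were higher in newly made RNA, from 0.92 to 4.29, and the one that stands for the gene was the lowest of them. All 4 of Rbm26 were higher, from 1.28 to 2.40, and all 3 of Rbm42 lower, from -2.11 to -0.27. Srsf11, near 0 on its main probe set at 0.17 ± 0.25, reached 3.23 on another, with 3 of 4 called higher. Srsf3 reached 1.82 and Rbm25 2.39 on their other probe sets. Of the 154 member probe sets 28.6% had a difference above 1 and 12.3% above 2, against 10.4% and 2.28% of the 34945 single-gene probe sets, and 7.14% against 9.17% lay under -1. Where on a transcript each probe set lies was not analysed here. With TGF-b1 the ranges between newly made and total RNA had a median of 1.38 and exceeded 1 in 24 members. There 10 members were called in both directions. In the comparisons of TGF-b1 and of siRNA the median range was 0.15 to 0.34, and no member was called in both directions. The median range of 0.25 for TGF-b1 at 40 h was still larger than the median member change there, and the widest range was that of Rbm47, from -1.15 to -0.04.

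**Figure D2:**
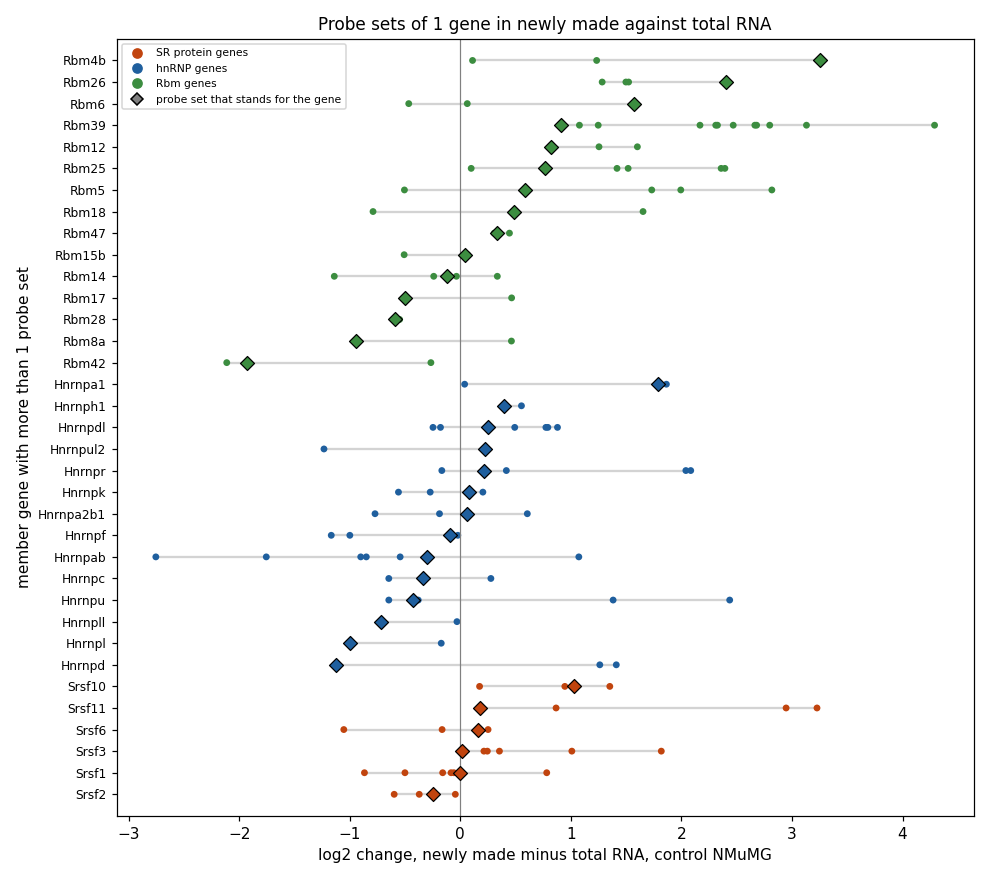
Difference of newly made minus total RNA without TGF-b1 (x axis, log2) for every probe set of the 35 members with more than 1 (y axis), where a diamond is the probe set that stands for the gene and the grey line joins the lowest and highest. Hnrnpab spans from -2.75 to 1.07, and all 12 probe sets of Rbm39 lie to the right of 0.

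TGF-b1 at 2 h left nearly all members without a call. In newly made RNA 1 member was higher (Rbm43) and 1 lower (Rbm47), against 3.35% and 2.79% of all genes, and the other 46 lay between -0.32 and 0.22. In total RNA 0 members were called higher and 1 lower (Rbm47), against 1.46% and 1.02% of all genes. At an unadjusted p under 0.05 limma gave 3 members in each kind of RNA. The median change of the members was 0.05 in newly made and -0.05 in total RNA, beside -0.01 and -0.03 for all genes.

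Rbm47 encodes a protein with RNA recognition motifs that serves as a cofactor of APOBEC1 in apolipoprotein B mRNA editing. In newly made RNA it had 9.30, 8.84 and 9.31 without and 8.23, 8.25 and 7.87 with TGF-b1. In total RNA it had 9.01, 8.69 and 8.74 without and 8.11, 8.17 and 7.95 with TGF-b1. In both kinds of RNA every treated array lay below every untreated one. Rbm47 fell by -1.03 ± 0.15 in newly made RNA (2.04-fold, limma adjusted p = 0.000363) and by -0.74 ± 0.15 in total RNA (limma adjusted p = 0.0107). The call in total RNA was lost without control array 1, without TGF-b1 array 3 and with the mean of its 3 probe sets, with an adjusted p of up to 0.184. A second probe set of Rbm47 had differences of -1.03 ± 0.30 and -0.74 ± 0.30 that did not pass the test, and the third, at a mean level of 3.63, had -0.11 and 0.03.

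Rbm43 also has an RNA recognition motif. It had 7.74, 7.94 and 7.73 without and 8.09, 8.43 and 8.37 with TGF-b1 in newly made RNA, groups that did not overlap, and rose by 0.49 ± 0.13 (limma adjusted p = 0.0275). Leaving out array 1 or 3 of the controls, array 2 or 3 of TGF-b1, or every array of the other groups ended the call, with an adjusted p of up to 0.119. In total RNA Rbm43 had 7.80, 7.71 and 8.02 against 8.08, 8.17 and 7.98, which overlapped, with a difference of 0.23 ± 0.13 that was not called.

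Several well-known splicing regulators had differences at 2 h no larger than their errors. Hnrnph1 had a larger one in newly made RNA, at 0.22, the highest of the hnRNP genes, and was not called. In newly made RNA Srsf1 was at -0.04 ± 0.11, Srsf2 at -0.02 ± 0.19, Srsf5 at 0.08 ± 0.19 and Srsf6 at 0.07 ± 0.17. Hnrnpa1 was at 0.04 ± 0.13, Hnrnpm at 0.08 ± 0.17 and Hnrnpk at 0.08 ± 0.12. None of these was called, which at this precision does not show that they were the same. With the replicate number as a block within each kind of RNA, Rbm4b was lower in total RNA as well, by -0.41 ± 0.12 (limma adjusted p = 0.0398). No member was called for a TGF-b1 effect that differed between newly made and total RNA. There 0 were called higher and 0 lower against 0.0110% and 0.0550% of all genes, and 0 had an unadjusted p under 0.05 in limma. With so few calls among all genes, this does not show that the effects were the same. Of the 48 differences 38 were positive and 10 negative, beside 9720 positive of all 18193 genes. Their median was 0.06 beside 0.01 for all genes. In the other splicing lists Ptbp3, a paralog of the polypyrimidine tract binding protein, was the only gene called at 2 h, at 0.54 ± 0.13 in newly made RNA (limma adjusted p = 0.0165). The difference of effects between the kinds of RNA was -0.29 ± 0.21 for Rbm47 and 0.26 ± 0.18 for Rbm43.

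**Figure D3:**
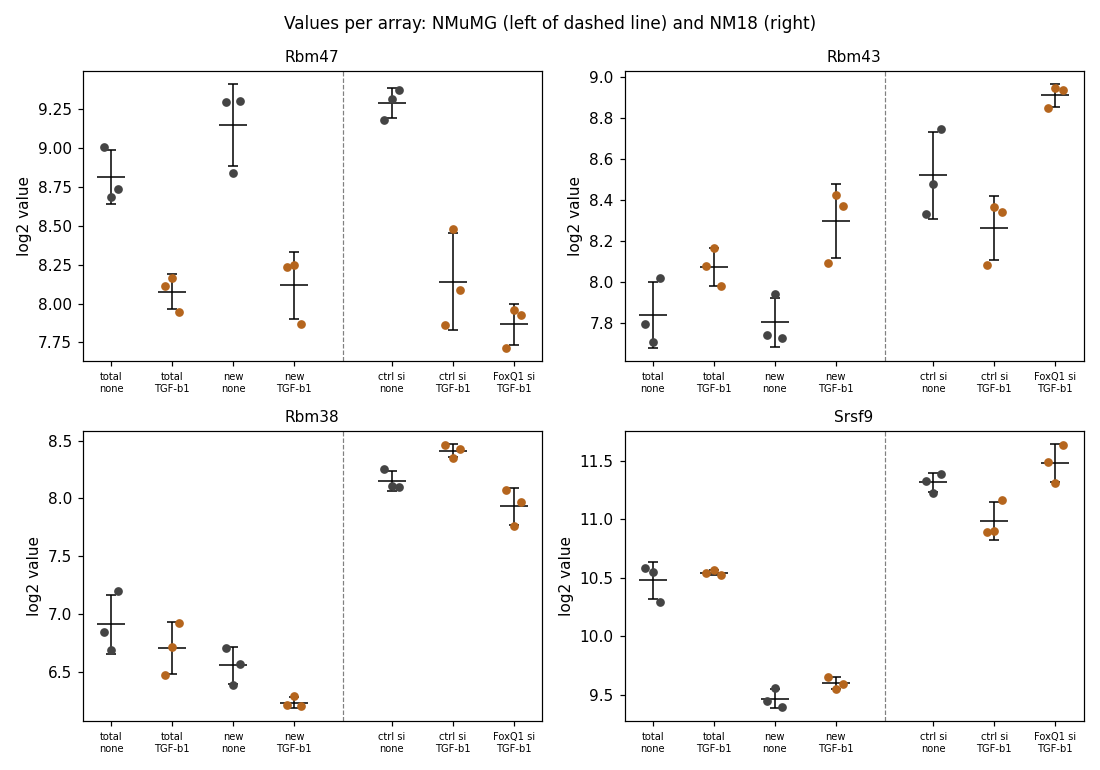
Deposited log2 values (y axis) of Rbm47, Rbm43, Rbm38 and Srsf9 on each array (points, brown with TGF-b1 and grey without) in the 4 NMuMG groups and the 3 NM18 groups, with mean and SD of 3 arrays. The axes do not start at 0 and levels are compared only on the same side of the dashed line, and Rbm47 is lower on every array with TGF-b1 than on those without in the matching group.

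TGF-b1 for 40 h in NM18 cells under control siRNA lowered many SR and hnRNP genes. Of the 48 members 3 rose and 18 fell, against 13.2% and 17.5% of all genes, and 40 of 48 changes were negative. The groups did not overlap in 23 members that were lower and 4 that were higher, which was so for 22.6% and 19.3% of all genes. The median change was -0.18 beside 0.00 for all genes. Among SR genes 0 rose and 5 of 9 fell, with a median of -0.32. Among hnRNP genes 0 rose and 10 of 18 fell, with a median of -0.25. Among Rbm genes 3 rose and 3 of 21 fell. The changes were small, and apart from Rbm47 the largest fall was 1.42-fold. Among the 6196 genes above the median level, which hold 47 members, 27.7% were called lower and 19 members were.

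The SR genes that fell were Srsf1, Srsf2, Srsf3, Srsf4 and Srsf9. Srsf1, the founding SR protein, had 12.66, 12.53 and 12.56 without and 12.32, 12.10 and 12.22 with TGF-b1, with every treated array below every untreated one. It fell by -0.37 ± 0.09 (limma adjusted p = 0.00798). Srsf2, a protein of nuclear speckles, had 12.45, 12.22 and 12.18 against 12.06, 11.78 and 11.87 and fell by -0.38 ± 0.10 (limma adjusted p = 0.0102). Srsf3, which also takes part in mRNA export, had 12.66, 12.33 and 12.33 against 12.20, 11.82 and 11.97. Neither Srsf2 nor Srsf3 overlapped between the groups, and array 1 was the highest on each side in both genes. Srsf3 fell by -0.44 ± 0.12 (limma adjusted p = 0.0180), a call that was lost without control array 1, without TGF-b1 array 2 or 3 and with the mean of its 6 probe sets. Srsf4 fell by -0.32 ± 0.07 and Srsf9 by -0.33 ± 0.10, the latter call lost when array 1 or 3 of the untreated or array 1 or 2 of the treated group was left out. Srsf5, Srsf6, Srsf10 and Srsf11 were not called, with differences of -0.00 ± 0.13, -0.09 ± 0.12, -0.21 ± 0.08 and -0.06 ± 0.08.

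The hnRNP genes that fell spanned several binding types. Hnrnph3, of the family that binds G tracts, had 9.06, 8.98 and 9.25 without and 8.56, 8.66 and 8.67 with TGF-b1 and fell by -0.47 ± 0.08 (limma adjusted p = 0.000814). Hnrnpd had 11.88, 11.69 and 11.75 against 11.43, 11.24 and 11.40 and fell by -0.41 ± 0.09 (limma adjusted p = 0.00357). Hnrnpa1 had 11.47, 11.48 and 11.68 against 11.21, 10.96 and 11.22 and fell by -0.41 ± 0.11 (limma adjusted p = 0.0155). In all these genes the treated arrays lay below the untreated ones. Hnrnpr, Hnrnpm, Hnrnpa2b1, Hnrnpf, Hnrnpu, Hnrnph1 and Hnrnpc fell by between -0.33 and -0.25. The calls of Hnrnpa1, Hnrnph1, Hnrnpm and Hnrnpr were each lost without at least 1 array, and that of Hnrnpu with the mean of its probe sets. Hnrnpk, a poly(C) binding protein, was at 0.00 ± 0.07, and Hnrnpl at -0.18 ± 0.08, neither called.

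Rbm47 fell most of all members. It had 9.18, 9.32 and 9.38 without TGF-b1 and 7.86, 8.48 and 8.09 with it. These groups did not overlap, and Rbm47 fell by -1.15 ± 0.13 or 2.22-fold (limma adjusted p = 7.53e-05). A different probe set stood for Rbm47 in this table than in the NMuMG table. Its other probe set here, at a mean level of 5.68, was at -0.04 ± 0.07. Rbm14, a transcriptional coactivator and paraspeckle protein, had 10.68, 10.69 and 10.82 against 10.17, 10.23 and 10.27 and fell by -0.51 ± 0.07 (limma adjusted p = 0.000235). Rbm8a fell by -0.31 ± 0.11, a call lost without any of 4 of the 6 arrays. Rising were Rbm4b by 0.46 ± 0.14, Rbm15b, a paralog of Rbm15 in the m6A writer complex, by 0.28 ± 0.07 and Rbm38 by 0.26 ± 0.08. The arrays of Rbm4b overlapped between the groups, and its other probe set in this table was at -0.04 ± 0.10. With the mean of all probe sets 2 members rose, and 1 riser was left without TGF-b1 array 1 or array 2. Rbm5 and Rbm39 were at -0.15 ± 0.11 and -0.17 ± 0.07 and were not called.

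Arrays of the same number in NM18 deviated together, and with the number as a block 5 members rose and 27 fell, all 21 called without the block among them, while 17.0% and 21.6% of all genes were called. Without control siRNA array 1, whose note mentions TGF-b1, 2 rose and 15 fell. In the same comparison 1 of 10 epithelial markers rose and 3 fell, 2 of 8 leukocyte markers rose and 1 fell, and 1 of 8 fibroblast markers rose, and their part in the member changes was not tested. Lists of other splicing genes were counted without the block, where 13.2% of all genes rose and 17.5% fell. Of U2 snRNP and branch site proteins 10 of 17 fell and 0 rose, with Sf3a3 at -0.48 ± 0.08, and of U1 and Sm core proteins 5 of 10 fell and 0 rose. Of tri-snRNP and Prp19 complex proteins 5 of 19 fell and 1 rose, with Prpf38a at -0.45 ± 0.06. Of other regulators of splice site choice 12 of 33 fell and 3 rose, among them Rbfox2, an RNA-binding regulator of exons that differ between epithelial and mesenchymal cells, at 0.66 ± 0.06 and Mbnl3 at -0.70 ± 0.08. Of SR kinases and SR-related proteins 2 of 17 rose and 2 fell, shares near those of all genes, and of exon junction and nonsense-mediated decay proteins 1 of 9 fell, the export adaptor Alyref at -0.55 ± 0.09.

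**Figure D4:**
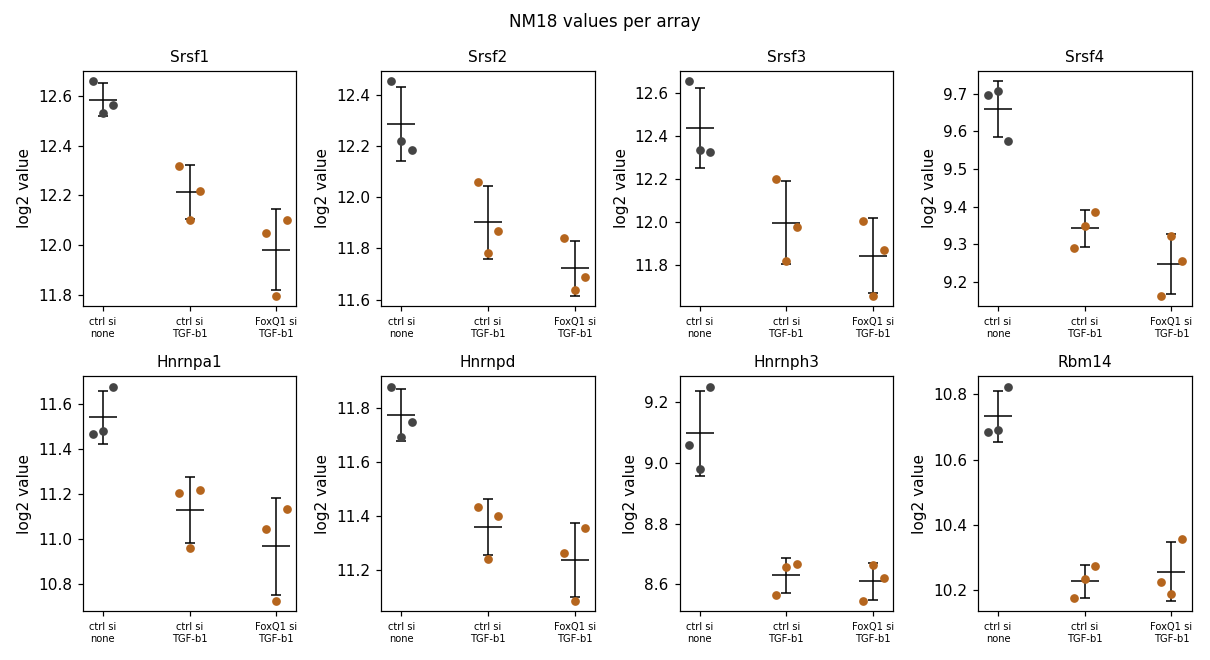
Deposited log2 values (y axis, not starting at 0) of Srsf1, Srsf2, Srsf3, Srsf4, Hnrnpa1, Hnrnpd, Hnrnph3 and Rbm14 on each NM18 array (points, brown with TGF-b1 and grey without), with mean and SD of 3 arrays. In each panel the 3 arrays with control siRNA and TGF-b1 lie below the 3 without TGF-b1, for Rbm14 at 10.17, 10.23 and 10.27 against 10.68, 10.69 and 10.82.

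The siRNA against FoxQ1 was set against the control siRNA among NM18 cells that had all received TGF-b1. The control siRNA arrays here are the TGF-b1 arrays of the 40 h comparison above. A deviation of those arrays would move a gene in opposite directions in the 2 comparisons, as for Srsf9 and Rbm38, and its part was not tested. Of the members 2 were higher (Rbm43 and Srsf9) and 3 lower (Rbm38, Hnrnpll and Rbm28) with FoxQ1 siRNA, against 11.3% and 8.28% of all genes. The median change was -0.06 beside -0.00 for all genes. With the array number as a block the same 5 were called and 9 more were lower (Hnrnpab, Hnrnpu, Rbm15b, Rbm17, Rbm22, Rbm47, Srsf1, Srsf2 and Srsf6), which made 12 lower, against 12.1% of all genes in that fit. Srsf1 was at -0.23, with an adjusted p in limma of 0.103 without and 0.0185 with the block.

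Rbm43 had 8.09, 8.37 and 8.34 with control siRNA and 8.85, 8.95 and 8.94 with FoxQ1 siRNA, a rise of 0.65 ± 0.11 or 1.56-fold (limma adjusted p = 0.00157). The FoxQ1 siRNA arrays of Rbm43 also lay above the untreated arrays at 8.33, 8.48 and 8.75. Srsf9, a small SR protein, had 10.89, 10.90 and 11.17 with control siRNA and 11.49, 11.31 and 11.64 with FoxQ1 siRNA, and rose by 0.50 ± 0.10 (limma adjusted p = 0.00464). The FoxQ1 siRNA arrays of Srsf9 overlapped the untreated ones at 11.33, 11.23 and 11.39, and the control siRNA arrays with TGF-b1 lay below both.

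Rbm38, a p53 target that binds and stabilises the p21 mRNA, had 8.46, 8.35 and 8.43 with control siRNA and 8.07, 7.76 and 7.97 with FoxQ1 siRNA. These groups did not overlap, and Rbm38 fell by -0.48 ± 0.08 (limma adjusted p = 0.00227). Hnrnpll, known as a regulator of exon skipping in the leukocyte gene Ptprc, had 10.85, 10.85 and 11.01 against 10.54, 10.55 and 10.72 and fell by -0.30 ± 0.08 (limma adjusted p = 0.0172). Rbm28, a nucleolar protein that associates with spliceosomal small nuclear RNPs, had 9.37, 9.51 and 9.37 against 9.18, 9.10 and 9.22 and fell by -0.25 ± 0.07 (limma adjusted p = 0.0221). The calls of Hnrnpll and Rbm28 were lost without FoxQ1 siRNA array 1 or array 2. They were also lost without 1 of the control arrays, array 3 for Hnrnpll and array 2 for Rbm28. The other probe set of each gene was not called, at -0.10 ± 0.06 for Hnrnpll and -0.10 ± 0.08 for Rbm28. Without FoxQ1 siRNA array 1 only Rbm38 was called lower.

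Other well-known regulators were not called here on the probe set that stands for the gene. Srsf3 was at -0.15 ± 0.12, Hnrnpa1 at -0.16 ± 0.11, Hnrnpk at -0.09 ± 0.07, Hnrnpm at -0.12 ± 0.11 and Rbm39 at -0.04 ± 0.07. Hnrnpa2b1 was at -0.06, but other probe sets of it were called lower at -0.25 ± 0.07 and -0.32 ± 0.08. The mean of all its probe sets was called as well. A probe set of Srsf1 at -0.26 ± 0.08 and 1 of Srsf6 at -0.36 ± 0.11 were also called lower. Another probe set of Srsf6 was at 0.14 ± 0.09 and the one that stands for it at -0.31 ± 0.12, neither called. Of the 129 member probe sets 3 were called higher and 8 lower, against 9.56% and 8.22% of all single-gene probe sets. With FoxQ1 siRNA 4 of 10 epithelial and 3 of 8 leukocyte markers were higher and 0 of either lower, and their part was not tested. The other lists were counted where 11.3% of all genes rose and 8.28% fell. Of regulators of splice site choice 7 of 33 rose and 5 fell. Among them were Ptbp2, a repressor of neuronal exons, at 1.05 ± 0.12 and Esrp2, an epithelial splicing regulator, at 0.42 ± 0.07. Of exon junction and decay proteins 4 of 9 fell and 0 rose, with Ncbp2, a subunit of the cap binding complex, at -0.55 ± 0.07 and Alyref at -0.56 ± 0.09. Of U2 snRNP and branch site proteins 2 of 17 fell, of which Snrpb2 changed by -0.85 ± 0.07. SR kinases and SR-related proteins had 2 of 17 lower, Pnn at -0.53 ± 0.06 and Tra2b at -0.26 ± 0.08. In both of these lists 11.8% fell, which is near the share of all genes. Of U1 and Sm core proteins 2 of 10 fell, and of tri-snRNP and Prp19 complex proteins 1 of 19.

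**Figure D5:**
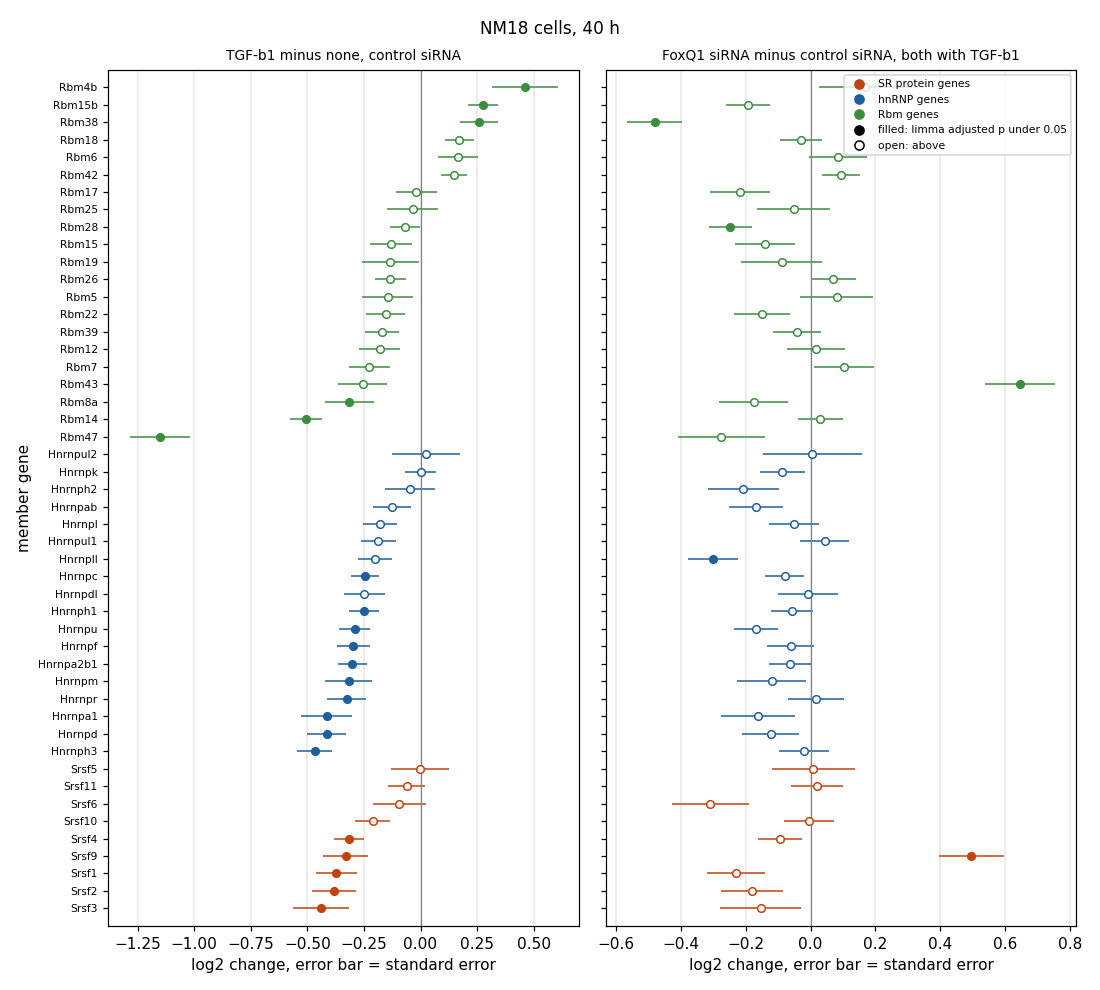
Change of each of the 48 members (y axis, ordered within family) in NM18 cells (x axis, log2, bars show the standard error), for TGF-b1 against none under control siRNA (left) and FoxQ1 over control siRNA where all arrays had TGF-b1 (right, another x scale). Filled points have a limma adjusted p under 0.05, and on the left 18 members lie filled below 0 and 3 above, with Rbm47 at -1.15. Both panels use the same control siRNA arrays with TGF-b1.

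Set against untreated control siRNA, FoxQ1 siRNA with TGF-b1 gave 4 members higher and 27 lower, against 19.3% and 18.6% of all genes, with a median of -0.25. This comparison shares its untreated arrays and its FoxQ1 siRNA arrays with those above, so the values are only set side by side. Rbm47 was lower by -1.43 ± 0.13 (limma adjusted p = 8.85e-06), where TGF-b1 alone gave -1.15. Srsf1 was lower by -0.60 ± 0.09, Srsf3 by -0.60 ± 0.12, Hnrnpa1 by -0.58 ± 0.11 and Srsf2 by -0.56 ± 0.10, and these had been -0.37, -0.44, -0.41 and -0.38 with TGF-b1 under control siRNA. SR genes had 6 of 9 lower and hnRNP genes 14 of 18. With the array number as a block 4 were higher and 32 lower, against 22.9% and 21.8% of all genes, where Hnrnph2, Rbm12, Rbm17, Rbm19, Rbm38 and Srsf9 were gained and Rbm6 was lost. Srsf6 was lower here by -0.40 ± 0.12, a call lost without untreated array 1 or FoxQ1 siRNA array 2. For TGF-b1 under control siRNA the other probe sets of Srsf6 were at -0.10 ± 0.09 and -0.11 ± 0.11. For FoxQ1 siRNA against control siRNA these were at 0.14 ± 0.09 and -0.36 ± 0.11, so the probe sets of this gene differed. Rbm4b, Rbm43, Rbm6 and Rbm42 were higher by 0.63 ± 0.14, 0.39 ± 0.11, 0.25 ± 0.09 and 0.24 ± 0.06, and the call of Rbm43 was lost without untreated array 1, and those of Rbm6 and Rbm42 with the mean of their probe sets. Without untreated array 1, 2 were higher and 19 lower.

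Over the 8 comparisons Hnrnpk, Hnrnpul1 and Srsf11 were the only members never called in the main fits. Those fits used the deposited scaling and the probe set that stands for the gene. Under quantile normalization Hnrnpk was called higher in newly made than in total RNA. Rbm47 was the only member called in NMuMG cells in both kinds of RNA under TGF-b1, and its changes there of -1.03 and -0.74 and at 40 h in NM18 cells of -1.15 had the same direction in tables that share no array. Time and cell line differ together between these tables and cannot be told apart.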

How the data were processed

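Expression was measured on 21 arrays, 12 of NMuMG and 9 of NM18 cells. The deposited values were treated as log2, since they run from 2.34 to 14.8 and from 4.57 to 14.6. The authors' summarisation and normalization are not given in the sources used here, beyond the name of the package affy 1.18.2 in the submitters' processing notes. No level was tested across the tables, which were normalized apart. No column of another sample was present (0 columns).

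Groups came from the titles. For each table limma 3.58.1 in R 4.3.3 (lmFit, eBayes, two-sided) fitted all groups together, with Benjamini-Hochberg adjustment over 18193 or 12393 genes, after a test on simulated data. Named genes are, per comparison, up to the 5 largest called rises and falls, a fixed set of well-known members, and up to 2 genes per other list with the smallest p. Further called members were named after their values were seen. The members and lists were chosen with earlier results of these data known. Fits with the replicate number as a block were made because arrays with the same number deviated together. The lowest correlation of their deviations from group means was 0.26 in NM18, 0.28 in newly made and 0.13 in total RNA. Between kinds of RNA the lowest was -0.19, and -0.02 where both had the same treatment. Alternatives were other scalings, probe set rules, filters and left-out arrays.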

Additional observations from a re-analysis of the deposited data

Results flagged for a closer look

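Rbm38 had differences of opposite sign between TGF-b1 and untreated arrays in NMuMG newly made RNA at 2 h and in NM18 total RNA at 40 h under control siRNA, with no overlap of the groups in either. Cell line, time, kind of RNA and siRNA all differ between these comparisons and cannot be told apart. In newly made NMuMG RNA its log2 difference was -0.32, with 6.70, 6.39 and 6.57 without and 6.21, 6.29 and 6.20 with TGF-b1. In NM18 cells its change was 0.26, with 8.25, 8.10 and 8.10 without and 8.46, 8.35 and 8.43 with TGF-b1. The difference at 2 h was not called (limma adjusted p = 0.290), and the difference between the tables was not tested. The call at 40 h (limma adjusted p = 0.0379) was lost without any of 5 of the 6 arrays, with an adjusted p of up to 0.120.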

How the results depend on the processing

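Of 29 members called in newly made against total RNA with TGF-b1, 19 were called under every alternative run, as were 20 of 28 without TGF-b1, 11 of 21 for TGF-b1 at 40 h, 3 of 5 for FoxQ1 siRNA (Rbm38, Rbm43 and Srsf9) and 18 of 31 for FoxQ1 siRNA with TGF-b1 against untreated cells. Quantile normalization gave 23 members higher in newly made RNA in each culture and 5 higher for TGF-b1 at 40 h. It reversed Hnrnpab to 0.38, Hnrnpc to 0.23 and Srsf1 to 0.63 without TGF-b1, and Hnrnpc to 0.24 and Hnrnpu to 0.055 with it. The mean of all probe sets reversed Hnrnpd to 0.52 and Hnrnpu to 0.47 without TGF-b1, and Hnrnpd to 0.47, Hnrnpu to 0.71 and Hnrnpul2 to -0.34 with it. That setting left 0 members lower for TGF-b1 at 2 h in total RNA and 2 higher for FoxQ1 siRNA with TGF-b1 against untreated cells, and fitting only the arrays compared left 0 higher at 2 h in newly made RNA. The cause was not tested. With the replicate block, 5 members rose for TGF-b1 at 40 h, 12 were lower for FoxQ1 siRNA and 2 were lower at 2 h in total RNA. Whether newly made and total RNA of the same number came from 1 culture is not stated. For newly made against total RNA the block gave 13 higher and 16 lower without TGF-b1, and 16 and 14 with it.

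Leaving out 1 array at a time gave these ranges of members higher and then lower: 11 to 14 and 12 to 15 for newly made against total RNA, 13 to 16 and 12 to 14 for the same with TGF-b1, 0 to 1 and 1 to 1 for TGF-b1 at 2 h in newly made RNA, and 0 to 0 and 0 to 1 in total RNA. For NM18 cells the ranges were 1 to 3 and 12 to 18 for TGF-b1 at 40 h, 2 to 2 and 1 to 3 for FoxQ1 siRNA, and 2 to 4 and 19 to 25 for FoxQ1 siRNA with TGF-b1 against untreated cells. The difference of the 2 h effects between kinds of RNA had 0 and 0 throughout. With 3 arrays per group, changes smaller than a few standard errors were not detectable.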
